A study of Mus musculus with 8 samples.

Results

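The genes described here burn fatty acids for energy or respond to fasting. They form a chosen list of 45 genes, grouped by role, and each was read from the probe set annotated with that 1 gene symbol and, where there were several, from the one with the highest mean. Of the 45, 42 were measured among 19938 genes in all. Acsl1 and Ucp2 had no such probe set in the annotation and Acsl3 shared its only probe set with another gene, so these 3 are not analysed here. The 8 arrays hold total RNA of dissected renal cortex from male C57Bl6J mice aged 10 weeks, 4 labelled as lacking SPAK (the kinase encoded by Stk39; SPAK KO) and 4 as wild-type littermates (WT). All animals could eat and drink freely, on feed with 0.32% NaCl and 1% KCl, and neither the hour of tissue collection nor the disrupted stretch of Stk39 is stated in the labels. Values are log2 RMA expression values, and every difference is SPAK KO minus WT on that scale.

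Proximal tubule cells, which make up most of the renal cortex, meet their energy needs largely by oxidizing fatty acids. Fatty acids are taken up, activated to acyl-CoA, carried into mitochondria by the carnitine shuttle and shortened by beta-oxidation, while very long and branched chains are first shortened in peroxisomes. During fasting the nuclear receptor PPAR-alpha raises many of these enzymes, and Pdk4, an inhibitory kinase of the pyruvate dehydrogenase complex, turns cells from glucose to fatty acids. In bulk cortex a lower value can come from fewer cells of a type or from less RNA per cell, and these cannot be told apart.

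Stk39, the disrupted gene, read 7.21, 6.98, 6.79 and 7.10 on SPAK KO arrays 1 to 4, against 8.36, 8.51, 8.60 and 8.11 on WT arrays 1 to 4. The groups did not overlap, and the difference was −1.38 ± 0.11 (SE; limma adjusted p = 5.8e-04). The arrays of a genotype did not all vary alike. Among 6297 genes with a mean above 8, the 6 pairs of SPAK KO arrays differed by more than 0.4 in 1 to 10 genes and WT 2 from WT 3 in 3, whereas the 5 other WT pairs differed in 119 to 228. For this reason a WT mean ± SD takes the average of WT 2 and WT 3 as a single sample (n = 3), and no SD is given for SPAK KO. Nothing in the labels shows separate extracts, so p-values of the 8-array fit measure the spread between these arrays, which may be technical. Counting arrays that agree once left 1 SPAK KO sample against 3 WT samples, so that the spread came from WT alone. In that fit limma called 0 of 19938 genes and 618 had an unadjusted p under 0.05 (3.1%), 1 of them a member, Acot1. Stk39 did not pass either (adjusted p = 0.751), so the missing calls say nothing of single genes, and differences and intervals from that fit are given instead. The markers of proximal tubule were bright on all arrays (mean log2 level of 21 genes 12.3 on every SPAK KO array and 12.2 to 12.3 on the WT arrays). Of them 2 were called higher, Napsa at 0.54 ± 0.10 and Aqp1 at 0.34 ± 0.06 (SE), and the list's median difference was 0.03. With each array left out in turn, Napsa passed in 2 of 8 fits (adjusted p up to 0.0880) and Aqp1 in 5 of 8 (up to 0.0621).

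The promoters shown are those of the members with the widest spread between WT arrays, Pdk4 and Acox2, and of Cd36, the member with the smallest p. Each runs over the 250 bases before the annotated start (RefSeq, GRCm38.p6), 5′ to 3′ along the gene's strand. The Pdk4 stretch is chr6:5496279-5496528, the Acox2 stretch chr14:8259020-8259269 (the more upstream of its starts) and the Cd36 stretch chr5:17835897-17836146, all on the minus strand. Capitals mark the nuclear receptor half-site AGGTCA on either strand.
Pdk4: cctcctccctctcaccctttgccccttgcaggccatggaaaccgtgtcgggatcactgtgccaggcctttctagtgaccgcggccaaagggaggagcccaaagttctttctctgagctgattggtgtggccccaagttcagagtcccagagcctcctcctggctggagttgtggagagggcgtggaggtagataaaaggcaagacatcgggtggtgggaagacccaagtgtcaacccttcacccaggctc
Acox2: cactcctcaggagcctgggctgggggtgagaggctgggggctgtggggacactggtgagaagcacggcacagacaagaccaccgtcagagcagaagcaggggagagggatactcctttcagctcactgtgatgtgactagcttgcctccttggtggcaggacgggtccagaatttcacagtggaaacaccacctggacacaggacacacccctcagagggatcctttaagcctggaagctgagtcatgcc
Cd36: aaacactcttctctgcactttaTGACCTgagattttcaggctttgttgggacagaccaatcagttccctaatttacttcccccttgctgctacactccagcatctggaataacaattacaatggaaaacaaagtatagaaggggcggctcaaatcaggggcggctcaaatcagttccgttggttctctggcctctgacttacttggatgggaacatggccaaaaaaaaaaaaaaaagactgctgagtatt
Such windows were given for 38 of the 42 measured members. The half-site stood in the windows of 6 members (Acadm, Acadvl, Acot12, Cd36, Cpt1a and Slc27a2) and in 14% of all 32851 windows. The DR1 arrangement that PPAR-alpha binds, read as 2 copies of AGGNCA with 1 base of any kind between them, stood in 0 member windows and 0.338% of all windows. The FOXO core GTAAACA stood in 0 member windows and in 3.17% of all, and all motifs were read on both strands. Both are rare, so 0 of 43 member windows cannot show that the members lack them. Sequence outside the windows was not searched. A DR1 match whose N is T in either copy also holds the half-site.

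Across the members no difference between genotypes passed the test. Of the 42 members, 0 were called by limma at an adjusted p under 0.05, against 2.08% of all genes (278 higher, 1.39%, and 136 lower, 0.682%). With an unadjusted p under 0.05 there were 11 members, 26.2%, against 19.1% of all genes. The median member difference was 0.03, against −0.01 over all genes, and 28 members (66.7%) had a difference above 0, against 45.8% of all genes. These contrasts depended on dim genes, which are rare among the members. With genes of mean under 6 left out, 11 of 41 members and 2906 of 12001 genes had a limma unadjusted p under 0.05. The median differences were then 0.03 for members and 0.02 for all genes. With arrays centred, quantile normalized or fitted by cyclic loess, 39, 26 and 23 members lay above 0. The member medians were then 0.09, 0.01 and 0.01, and those of all genes 0.05, 0.0026 and −2.7e-05. Centring raised the difference of every gene by the same amount, so its count of 39 is not particular to the members. The share of all genes above 0 was not counted in these settings. As deposited, most member differences were small: the median size was 0.05, and for 33 of 42 the 95% interval lay within 1.2-fold either way. With arrays that agree counted once, that held for 5 of 42. Groups did not overlap for 8 members, 7 of them higher in SPAK KO and 1 lower, or 19% of members against 12.6% of all genes. That count depended on the scaling: it was 18 with each array centred on its median (42.9% of members, 16.5% of genes), 5 after quantile normalization (11.9% and 11.4%) and 4 after cyclic loess (9.52% and 11.5%). On the deposited values the higher direction alone held 16.7% of members and 6.9% of genes, and the lower 2.38% and 5.71%. For 21 members (50%, against 22% of all genes) all 4 SPAK KO arrays lay within the range of the WT arrays.

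**Figure D1:**
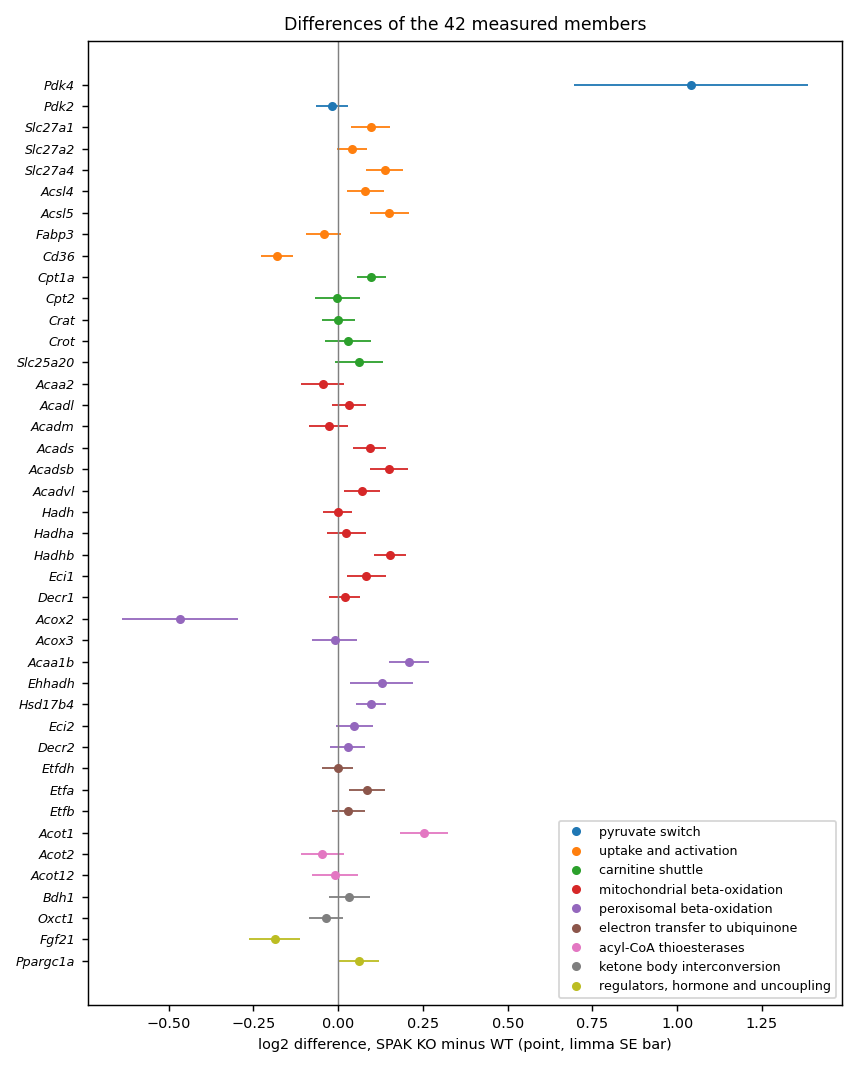
Log2 difference (SPAK KO minus WT, horizontal axis) of each of the 42 measured members, ordered and coloured by role. Points are limma estimates over 8 arrays and bars their SE; Pdk4 at 1.04 and Acox2 at −0.47 lie farthest from 0 and have the widest bars.

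Pdk4, which blocks the entry of pyruvate into the citric acid cycle, had the largest member difference and the widest spread. Its log2 values were 8.69, 8.55, 8.59 and 8.58 on SPAK KO arrays 1 to 4, and 8.87, 7.13, 7.32 and 6.92 on WT arrays 1 to 4. WT 1 lay above every SPAK KO array and the other WT arrays lay well below them, so the groups overlapped. The WT mean was 7.67 ± 1.05 (SD, n = 3). Over 8 arrays the difference was 1.04 ± 0.35 (SE; 2.06-fold, 95% interval 0.27 to 1.81), and it did not pass (limma adjusted p = 0.147). Without WT 1 the difference was 1.48 and passed (limma adjusted p = 1.2e-04), in a fit that called 2.16% of all genes. With arrays that agree counted once it was 0.93, with an interval of −0.73 to 2.58. Pdk2, the other pyruvate dehydrogenase kinase among the members, read 11.80 to 11.84 on SPAK KO arrays and 11.79 to 11.90 on WT arrays. Its difference was −0.02 ± 0.05 (SE), and its 8 arrays lay close together.

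**Figure D2:**
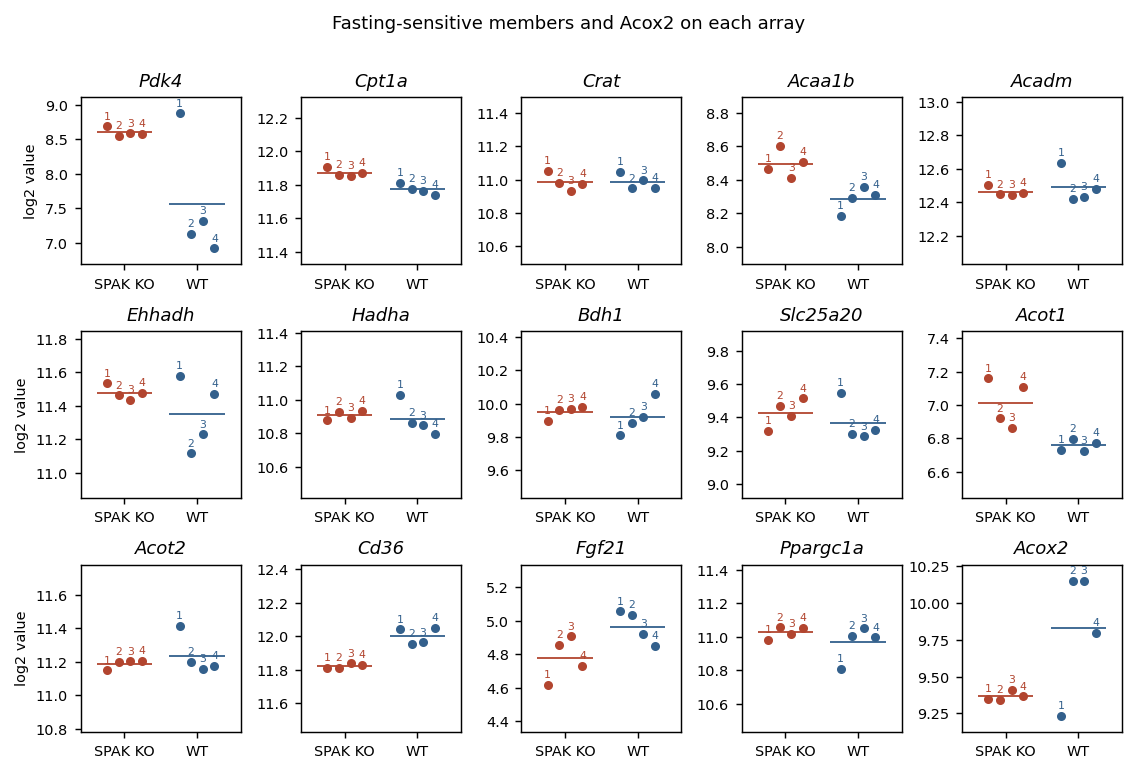
Log2 value on each array of the 14 measured fasting-sensitive members and of Acox2, with SPAK KO left of WT, numbers giving the array and lines the mean of 4 arrays. Vertical scales differ between panels, none spanning less than 1. WT 1 stands far above the other WT arrays for Pdk4 and far below them for Acox2, while the SPAK KO arrays lie close together.

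Among the genes for uptake and activation, Cd36 had the smallest p of all members. Cd36 brings fatty acids across the plasma membrane. It read 11.81, 11.81, 11.84 and 11.83 on the SPAK KO arrays, against 12.04, 11.95, 11.96 and 12.05 on the WT arrays. All SPAK KO arrays lay below all WT arrays, the only such member. The difference was −0.18 ± 0.05 (SE; 0.882-fold, limma adjusted p = 0.0815) and did not pass. It passed with a trend in the variance (adjusted p = 0.00912; 3.83% of all genes called) or with genes of mean under 6 left out (0.0319; 5.53% called), and missed with each array centred on its median (−0.12, adjusted p = 0.166). Cd36 is also a gene of endothelium and fat. Of 11 endothelial markers 0 were called (median difference −0.03; mean log2 level 9.0 to 9.1 on the SPAK KO arrays and 9.0 to 9.1 on the WT arrays). Of 10 adipocyte markers 1, Retn, was called, as higher, at 0.31 ± 0.07 (SE), and that call was lost whichever array was left out (adjusted p 0.0512 to 0.127). The median difference of the adipocyte list was 0.14, with 7 of 10 markers above 0. Its mean log2 level was 5.90 to 6.06 on the SPAK KO arrays and 5.82 to 5.97 on the WT arrays. Adipoq, a defining marker of fat cells, read 4.43 to 4.84 on the SPAK KO arrays and 4.17 to 4.56 on the WT arrays.

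The other uptake genes leaned the other way or lay near 0. Slc27a4, a fatty acid transport protein, read 8.99, 9.02, 8.97 and 8.96 on the SPAK KO arrays, against 8.86, 8.95, 8.85 and 8.74 on the WT arrays. These groups did not overlap, by a gap far smaller than the WT range, and the difference of 0.14 ± 0.05 (SE) did not pass (limma adjusted p = 0.207). Acsl5, an acyl-CoA synthetase, also had no overlap, with 8.95 to 9.06 on SPAK KO arrays and 8.73 to 8.94 on WT arrays, and a difference of 0.15 ± 0.06 (SE; adjusted p = 0.193). Slc27a1, Slc27a2 and Acsl4 differed by 0.10, 0.04 and 0.08, and Fabp3, a carrier of fatty acids in the cytosol, by −0.04. The second, dimmer probe set of Fabp3 gave −0.07.

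In the carnitine shuttle the rate-setting enzyme Cpt1a was the only 1 of 5 members without overlap. It read 11.90, 11.86, 11.85 and 11.87 on the SPAK KO arrays, against 11.81, 11.78, 11.76 and 11.74 on the WT arrays. The groups stood apart by little, and the difference of 0.098 ± 0.044 (SE; 1.07-fold) did not pass (limma adjusted p = 0.260). Cpt2, which reforms acyl-CoA inside mitochondria, read 10.65, 10.58, 10.63 and 10.63 on the SPAK KO arrays and 10.81, 10.59, 10.51 and 10.60 on the WT arrays. Slc25a20, which exchanges acylcarnitine for carnitine, read 9.32, 9.47, 9.41 and 9.51 on the SPAK KO arrays and 9.55, 9.30, 9.29 and 9.32 on the WT arrays. For both, WT 1 was highest of all arrays. Crat, the carnitine acetyltransferase, read 11.05, 10.98, 10.93 and 10.98 on the SPAK KO arrays and 11.04, 10.95, 11.00 and 10.95 on the WT arrays. Crat and Crot, the peroxisomal octanoyltransferase, differed by 4.3e-04 and 0.03.

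The enzymes of mitochondrial beta-oxidation barely differed. Of 11, 0 were called, the median difference was 0.03, and the differences ran from −0.05 (Acaa2) to 0.15 (Hadhb). Hadhb, the thiolase subunit of the trifunctional protein, read 10.37, 10.35, 10.34 and 10.43 on the SPAK KO arrays, against 10.18, 10.28, 10.21 and 10.21 on the WT arrays. Its groups did not overlap, and the difference of 0.15 ± 0.05 (SE) did not pass (limma adjusted p = 0.125), except with a trend in the variance (0.0420). A second Hadhb probe set gave 0.18. Hadha, the partner subunit, read 10.88, 10.93, 10.89 and 10.93 on the SPAK KO arrays and 11.03, 10.86, 10.85 and 10.79 on the WT arrays. Its WT 1 value was the highest of the 8, and the partners did not show the same pattern.

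Acadm, the medium-chain acyl-CoA dehydrogenase, read 12.51, 12.45, 12.45 and 12.46 on the SPAK KO arrays and 12.64, 12.42, 12.43 and 12.48 on the WT arrays. The final thiolase Acaa2 read 11.70, 11.69, 11.70 and 11.73 on the SPAK KO arrays and 11.88, 11.79, 11.75 and 11.59 on the WT arrays. Both groups of SPAK KO arrays lay within the WT range. The other dehydrogenases Acadl, Acads, Acadsb and Acadvl differed by 0.03, 0.09, 0.15 and 0.07. Hadh, Eci1 and Decr1, which handle hydroxyacyl and unsaturated intermediates, differed by −0.0014, 0.08 and 0.02. Electrons from these dehydrogenases pass through Etfa, Etfb and Etfdh to ubiquinone. Etfa read 10.59, 10.66, 10.65 and 10.65 on the SPAK KO arrays and 10.44, 10.55, 10.61 and 10.60 on the WT arrays, with a difference of 0.08 ± 0.05 (SE; limma adjusted p = 0.410). Etfb and Etfdh differed by 0.03 and −0.0020.

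Acox2, the peroxisomal oxidase of branched-chain acyl-CoA and bile acid precursors, had the largest downward difference. Its values were 9.35, 9.34, 9.41 and 9.37 on the SPAK KO arrays, against 9.24, 10.15, 10.15 and 9.80 on the WT arrays. WT 1 lay below every SPAK KO array and the other WT arrays above, the mirror image of Pdk4. The difference was −0.47 ± 0.17 (SE; 0.724-fold, limma adjusted p = 0.181) and did not pass. Without WT 1 it was −0.67 and passed (adjusted p = 0.00685). With arrays that agree counted once it was −0.36, with an interval of −1.12 to 0.39.

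Acaa1b, a peroxisomal thiolase, read 8.46, 8.60, 8.41 and 8.51 on the SPAK KO arrays, against 8.18, 8.29, 8.36 and 8.31 on the WT arrays. These groups did not overlap, and the difference of 0.21 ± 0.06 (SE) did not pass (limma adjusted p = 0.105). Its close relative Acaa1a, whose transcript could bind the same probes, differed by −0.04. Ehhadh, the bifunctional enzyme that PPAR-alpha activators raise, read 11.53, 11.46, 11.43 and 11.48 on the SPAK KO arrays and 11.58, 11.12, 11.23 and 11.47 on the WT arrays. WT 1 lay above the SPAK KO arrays, WT 4 among them and WT 2 and WT 3 below them, with a difference of 0.13 ± 0.09 (SE; adjusted p = 0.486). Hsd17b4, the other bifunctional enzyme, had no overlap, at 10.42 to 10.51 on SPAK KO arrays and 10.34 to 10.40 on WT arrays. The oxidase Acox3 and the auxiliary enzymes Eci2 and Decr2 differed by −0.01, 0.05 and 0.03.

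Acyl-CoA thioesterases release free fatty acid from CoA. Acot1, the cytosolic long-chain form, read 7.16, 6.92, 6.86 and 7.11 on the SPAK KO arrays, against 6.73, 6.80, 6.73 and 6.77 on the WT arrays. The groups did not overlap, and here the SPAK KO arrays varied more than the WT arrays (ranges 0.30 and 0.07). The difference of 0.25 ± 0.07 (SE; 1.19-fold) did not pass (limma adjusted p = 0.0996), except with each array centred on its median (0.31, adjusted p = 0.0483; 3.82% of all genes called). Acot1 has close relatives in Acot2, Acot3 and Acot4, so shared probe binding cannot be told apart from its own signal. Acot2, the mitochondrial form, read 11.15, 11.20, 11.20 and 11.20 on the SPAK KO arrays and 11.41, 11.20, 11.16 and 11.17 on the WT arrays. Acot12, which hydrolyses acetyl-CoA, read 11.67, 11.73, 11.72 and 11.70 on the SPAK KO arrays and 11.86, 11.57, 11.64 and 11.80 on the WT arrays. For both, WT 1 was the highest array and the difference lay near 0 (−0.05 and −0.0087).

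Of the genes of ketone use, Bdh1 interconverts the main ketone bodies and Oxct1 activates acetoacetate. Bdh1 read 9.90, 9.96, 9.97 and 9.98 on the SPAK KO arrays and 9.81, 9.88, 9.92 and 10.06 on the WT arrays. Oxct1 read 11.52, 11.58, 11.56 and 11.56 on the SPAK KO arrays and 11.52, 11.66, 11.62 and 11.56 on the WT arrays. Both SPAK KO groups lay within the WT range. Ppargc1a, the coactivator of PPAR-alpha and of mitochondrial genes, read 10.98, 11.06, 11.02 and 11.05 on the SPAK KO arrays and 10.81, 11.01, 11.05 and 11.00 on the WT arrays. Its difference was 0.06 ± 0.06 (SE; limma adjusted p = 0.611), and its second probe set gave 0.13. Fgf21, a fasting hormone made mainly in liver, was the dimmest member, with 4.62, 4.86, 4.91 and 4.73 on the SPAK KO arrays and 5.06, 5.03, 4.92 and 4.85 on the WT arrays. No detection call comes with the values, so its difference of −0.19 ± 0.07 (SE; adjusted p = 0.216) may lie at background.

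**Figure D3:**
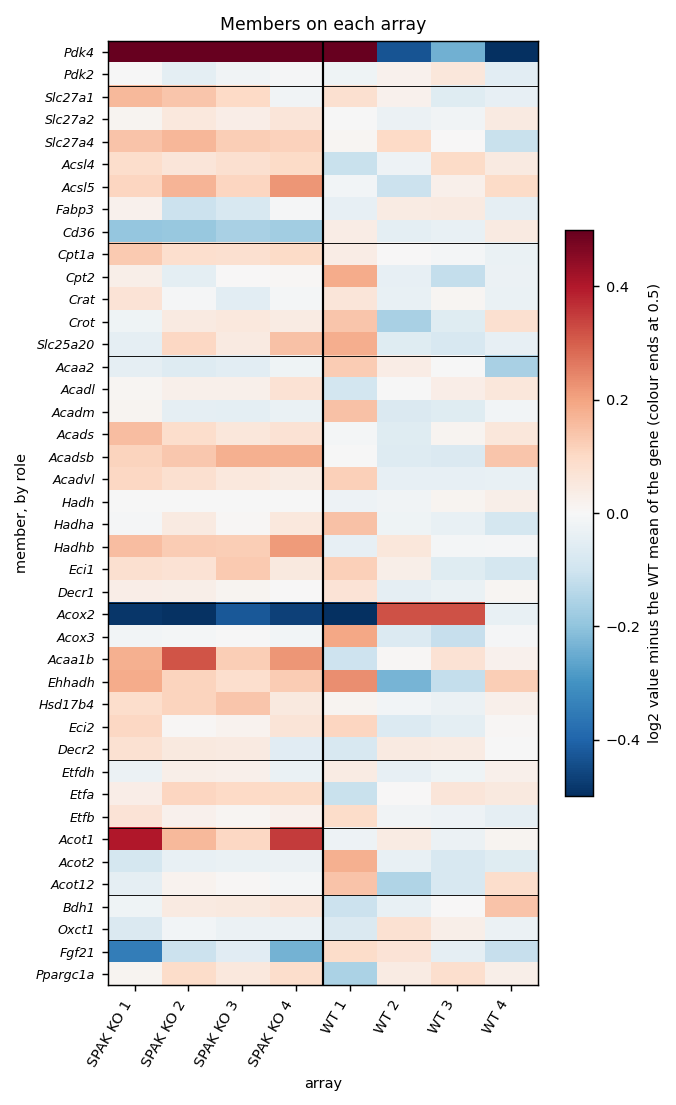
Each row is a member, grouped by role between thin lines, and each column an array, SPAK KO left of WT. Colour is the log2 value minus the gene's WT mean over 4 arrays. The scale ends at 0.5 either way, which Pdk4 and, in WT 1, Acox2 exceed. WT 1 is red across the carnitine shuttle, though only faintly for Cpt1a and Crat, and in much of beta-oxidation.

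The high Pdk4 value of WT 1 was shared by other members in direction, but not in size. WT 1 was the highest WT array for 21 of 42 members, Pdk4 among them (50%, against 32.4% of all genes). It was highest for 5 of 5 carnitine shuttle genes, 6 of 11 genes of mitochondrial and 3 of 7 of peroxisomal beta-oxidation, but for 0 of 2 ketone genes. The median of WT 1 minus the other WT arrays was 0.05 over the members and 0.01 over all genes, and by role it was 0.19 in the carnitine shuttle and 0.09 in mitochondrial beta-oxidation. For WT 2, WT 3 and WT 4 the member medians were −0.03, −0.03 and −0.0073. Over all probe sets WT 1 also had the highest median of all arrays, 6.19, against 6.13 to 6.17 on the other WT arrays. These counts and medians are on the deposited values, and their dependence on the scaling was not tested. Apart from Pdk4 and Acox2 no member had a WT range of 0.5 or more, so 2 of 42 did (4.76%, against 6.51% of all genes). On the SPAK KO arrays 0 of 42 reached that range, against 2.61% of all genes. The median range of a member was 0.07 on the SPAK KO arrays and 0.18 on the WT arrays, against 0.17 and 0.22 over all genes. The part of dim genes in these values over all genes was not tested. WT arrays also stood apart in other lists. The median of WT 1 against the other WT arrays was −0.17 for insulin and feeding response genes, −0.18 for distal convoluted tubule, −0.098 for intercalated cell, 0.10 for adipocyte and 0.04 for proximal tubule markers. That of WT 4 was −0.25 for glucocorticoid, FOXO and fasting response genes (WT 1 at 0.0047), 0.17 for intercalated cell, 0.14 for thick ascending limb and 0.13 for distal convoluted tubule markers. Their part in the spread of the members was not tested.

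**Figure D4:**
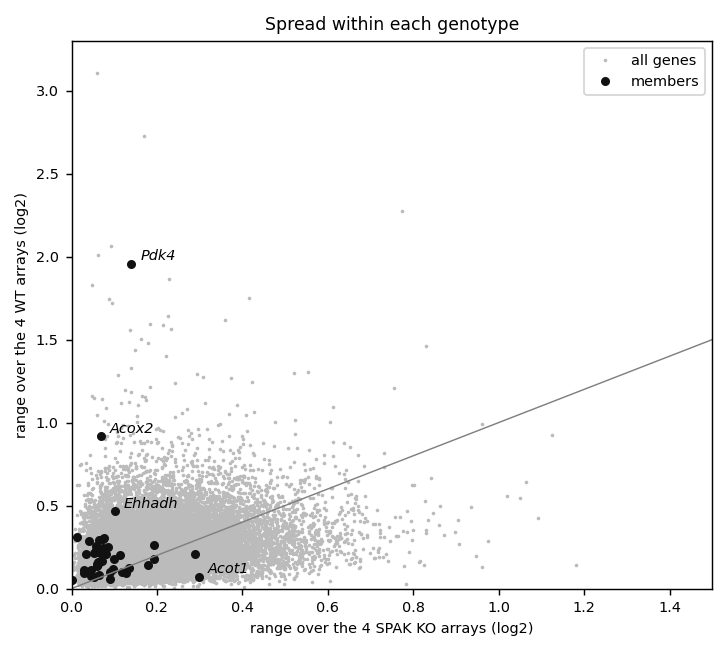
Range (highest minus lowest log2 value) over the 4 SPAK KO arrays on the horizontal axis and over the 4 WT arrays on the vertical axis, for all genes (grey) and members (black), with a line of equal ranges; 1 gene lies beyond the vertical axis end of 3.3. Pdk4 and Acox2 stand high and left; Acot1 lies below the line.

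The genes most like Pdk4 over the 8 arrays were sought among 49 others with a mean above 6 and a WT range of at least 1. Likeness was the root mean square difference of the values after each gene was centred on its mean; the 4 SPAK KO arrays agree, so few distinct samples stand behind it. Dio1, the type 1 deiodinase that activates thyroid hormone, was closest at 0.262. It read 8.82, 8.68, 8.73 and 8.76 on the SPAK KO arrays and 9.06, 7.50, 7.62 and 7.88 on the WT arrays. Bcat1, an aminotransferase of branched-chain amino acids, followed at 0.269, with 7.19, 7.35, 7.21 and 7.13 on the SPAK KO arrays and 7.51 on WT 1 and 5.87 to 6.27 on the other WT arrays. WT 1 was the highest array in both, which restates how they were chosen. The lipase inhibitor gene Angptl4 and the fatty acid hydroxylase gene Cyp4a14, both PPAR-alpha targets, were among the 10 at 0.464 and 0.521, with Pigr, Egln3, Akr1c18, Slc22a7, Hpd and Socs2.

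Outside the members, PPAR-alpha itself and some of its targets were called. Ppara, which encodes the receptor, was higher by 0.33 ± 0.05 (SE; limma adjusted p = 0.0113). Its values were 10.09, 10.05, 10.04 and 10.08 on the SPAK KO arrays, against 9.64, 9.81, 9.77 and 9.74 on the WT arrays. The groups did not overlap, WT 1 was the lowest array, and the call held whichever array was left out. Of 19 measured genes of the PPAR-alpha target list, which includes Ppara, 3 were higher and 0 lower, with a median difference of 0.20. The others called were Acot3, a peroxisomal thioesterase, at 0.34 ± 0.06 (SE; adjusted p = 0.0147) and the fatty acid hydroxylase gene Cyp4a31 at 0.33 ± 0.06 (SE; adjusted p = 0.0300). The Acot3 call was lost without SPAK KO 1 or SPAK KO 4 (adjusted p up to 0.0565), and the Cyp4a31 call in every such fit but that without WT 4 (up to 0.0980). Both have close relatives that could bind their probes.

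Other targets did not pass, and not all were higher. Of the 19 genes 14 lay above 0, and the lowest difference was that of Plin5, −0.15 ± 0.09 (SE). Cyp4a10, Vnn1 and Angptl4 differed by 0.25 ± 0.06, 0.27 ± 0.07 and 0.62 ± 0.26 (SE; limma adjusted p = 0.0668, 0.0932 and 0.231), the first pair named after their values were seen. Angptl4 read 9.02, 8.86, 8.94 and 8.96 on the SPAK KO arrays and 8.85, 8.52, 8.57 and 7.34 on the WT arrays. Cyp4a14 read 8.17, 8.02, 8.26 and 8.11 on the SPAK KO arrays and 8.55, 7.90, 7.99 and 7.31 on the WT arrays. WT 1 was the highest and WT 4 the lowest WT array for both, as for Pdk4. Both were among the 10 genes picked for likeness to Pdk4, so this partly restates the choice. For Angptl4 it was WT 4 that stood apart from the other WT arrays, whereas for Pdk4 it was WT 1.

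**Figure D5:**
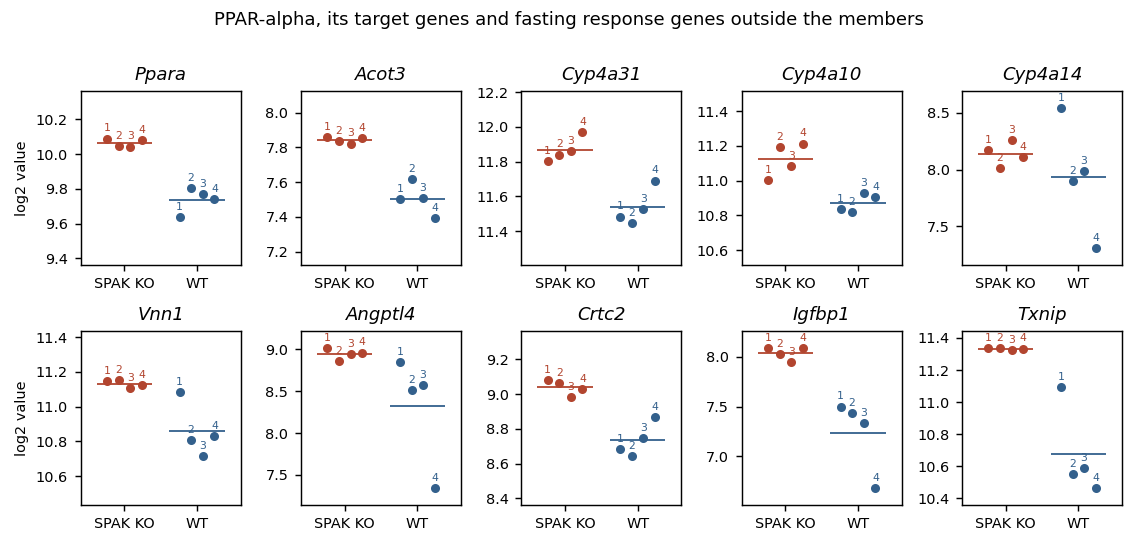
Log2 value on each array of Ppara, targets of its receptor and other fasting response genes outside the members, with SPAK KO left of WT, numbers giving the array and lines the mean of 4 arrays. Vertical scales differ between panels. Of these genes Cyp4a14 alone overlaps between groups, through WT 1.

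Among 37 further genes of fatty acid oxidation, 2 were higher, 1 lower and 34 were not called (median difference −8.1e-04). Acsm3, a medium-chain acyl-CoA synthetase, was lower at −0.42 ± 0.05 (SE; limma adjusted p = 0.00366), with 11.97, 11.97, 12.00 and 12.03 on the SPAK KO arrays, against 12.39, 12.37, 12.40 and 12.52 on the WT arrays. It passed whichever array was left out. Acad12, an acyl-CoA dehydrogenase, was higher by 0.26 ± 0.05 (adjusted p = 0.0324), which passed only without WT 1 or WT 4 (otherwise up to 0.107), and Acot3 was the other. Of 23 regulators of the pathway 2 were higher, Ppara and the CREB coactivator gene Crtc2 (0.30 ± 0.06, adjusted p = 0.0288), and the Crtc2 call was kept only without WT 4 (otherwise up to 0.101). Foxo1 differed by 0.21 ± 0.05 (adjusted p = 0.0598) and did not pass. Of 10 other pyruvate dehydrogenase genes 0 were called, with Pdk1 at 0.13 ± 0.05, Pdha1 at 0.10 ± 0.05 and Dlat at 0.05 ± 0.05. Of 5 genes of ketone formation and transport 0 were called, with Oxct2a at −0.22 ± 0.07, Slc16a1 at −0.28 ± 0.09 and Slc16a7 at −0.13 ± 0.06 (SE).

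Of 21 glucocorticoid, FOXO and fasting response genes 5 were higher and 0 lower (median difference 0.23). Igfbp1, a binding protein of insulin-like growth factors that insulin lowers, was higher by 0.80 ± 0.15 (SE; limma adjusted p = 0.0273). It read 8.09, 8.03, 7.95 and 8.08 on the SPAK KO arrays, against 7.50, 7.44, 7.33 and 6.68 on the WT arrays. Txnip, which limits glucose uptake, was higher by 0.66 ± 0.12 (adjusted p = 0.0203), with 11.34, 11.34, 11.33 and 11.33 on the SPAK KO arrays, against 11.09, 10.55, 10.59 and 10.47 on the WT arrays. Both had no overlap, and both passed only without WT 1 or WT 4 when arrays were left out in turn (otherwise up to 0.0982 and 0.0740). Per1, a clock gene that glucocorticoids raise, had the largest difference among those called, 0.93 ± 0.18, and its call was lost without WT 2 or any 1 SPAK KO array (up to 0.0840). Of 13 insulin and feeding response genes 1, Scd1, was higher, by 1.28 ± 0.10 (SE), whichever array was left out. The lipogenic genes Thrsp and Fads2 gave 0.40 ± 0.13 and 0.13 ± 0.05 (SE; limma adjusted p = 0.145 and 0.211) and did not pass. The list did not rise as a whole: its median difference was 0.04, with 7 of 13 genes above 0. Its lowest difference was −0.17 (Elovl6).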

How the data were processed

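Total RNA (6 µg per sample) was labelled and measured on 1-colour Affymetrix arrays, 1 array per sample, per the labels' protocols. The authors deposited log2 values that, per the submitters' processing notes, come from RMA (Affymetrix Expression Console). No software version or build is given in the sources used here. There were 35556 probe sets, none with a missing value. Array medians lay between 6.09 and 6.12 in SPAK KO and between 6.13 and 6.19 in WT. The number of arrays limits the precision.

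The platform annotation gave 1 symbol for 21789 probe sets, several for 1621 and none for 12146. Each gene was fitted on the log2 values with limma 3.58.1 (lmFit, eBayes) in R 4.3.3, with genotype as the only term, and called at a Benjamini-Hochberg adjusted p under 0.05 over all 19938 genes. The fit was tested on simulated data with independent noise on each array and the same spread in both groups. Those data do not copy the close agreement of some arrays here, so that test cannot speak for the p-values under it. Robust moderation used statmod 1.5.0.

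Members, lists and tests were chosen with earlier results of these data known. Per-array values are given for the fasting-sensitive members and, per role, for the members with the smallest p and the widest WT range. From each list up to 3 genes are named by rule (2 for cell types), those called with the largest difference or else the smallest p. Apart from the genes most like Pdk4, list genes named beyond this rule, such as Adipoq, were chosen after their values were seen. Alternatives covered normalization, dim genes, probe sets, moderation, pairing by number, arrays that agree and each array left out. Of the cell type lists not described in the report, skeletal muscle had 0 of 8 called, with Atp2a1 at −0.13 and Tnnt3 at −0.15. Immune cells had 1 of 9, Cd3e at −0.31, beside Adgre1 at −0.11, but the list's median was 0.01 with 5 of 9 above 0. Thick ascending limb had 2 of 7, Cldn16 at 0.32 and Casr at 0.31. With each array left out in turn, Cd3e passed in 1 of 8 fits (limma adjusted p up to 0.117) and Casr in 2 of 8 (up to 0.0782). Distal convoluted tubule had 2 of 6, Pvalb at −1.30 and Trpm6 at −0.63. Intercalated cells had 5 of 7, among them Slc26a4 at 0.65 and Atp6v1g3 at 0.52. The uncalled genes with the smallest p were Cidec at 0.24 among adipocyte markers, and Esam at 0.24 and Emcn at −0.12 among endothelial markers.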

Additional observations from a re-analysis of the deposited data

Results flagged for a closer look

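A sample far from the others of its genotype was found in 6 of 84 tests (42 members in each of 2 genotypes), where chance flags about 1 in 20 groups. WT 1 stood above the other WT arrays for Acadvl (9.58, others 9.42 to 9.43), Slc25a20 (9.55, others 9.29 to 9.32) and Acot2 (11.41, others 11.16 to 11.20). SPAK KO 1 stood below the other SPAK KO arrays for Crot (11.72, others 11.78 to 11.79), Acot2 (11.15, others 11.20) and Etfa (10.59, others 10.65 to 10.66). Pdk4 and Acox2, with the widest WT ranges of 1.96 and 0.92, did not reach this criterion.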

How the results depend on the processing

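Beside the deposited values, 18 other settings were tried, and 4 of them called any member. With each array centred on its median, 673 genes were higher and 88 lower (88.4% of calls higher, against 67.1% as deposited), 1 member was called higher (Acot1) and 18 did not overlap (16.5% of all genes); this centring moved the median difference of all genes to 0.05. With genes of mean under 6 left out, 462 genes were higher and 1 member lower (Cd36). A trend in the variance gave 527 higher and 237 lower, with 1 member each way (Hadhb and Cd36). Members without overlap numbered 5 after quantile normalization (11.4% of all genes) and 4 after cyclic loess (11.5%). Averaging WT 2 and WT 3 gave 175 higher and 78 lower, and counting agreeing arrays once, which leaves 1 SPAK KO sample and in which Stk39 did not pass either, gave 0 and 0. Deviations of same-numbered arrays were hardly correlated (−0.05, 0.08, −0.13 and 0.13), and 2 of 8 arrays were closest to their own number. The SPAK KO arrays differ too little from each other for this to decide whether the numbers pair the arrays. A replicate block gave 129 higher and 45 lower. Leaving out each array gave 106 (without SPAK KO 1) to 407 (without WT 4) genes higher, 50 to 218 lower, and 0 to 1 members higher and 0 to 1 lower, the calls being Pdk4 and Acox2 without WT 1. The cause of these moves was not tested.

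Of 42 members, 25 kept their sign in every setting, and none that changed it differed by more than 0.047 as deposited. Centring turned Pdk2 (0.040), Cpt2 (0.056), Acox3 (0.048), Acaa2 (0.013), Acadm (0.030), Hadh (0.057), Oxct1 (0.022), Acot2 (0.012), Acot12 (0.050), Fabp3 (0.016) and Etfdh (0.057). Quantile normalization turned Crat (−0.011), Crot (−0.0026), Hadh (0.011) and Decr1 (−0.014). Cyclic loess turned Crat (−0.025), Hadha (−0.0024), Decr1 (−0.011), Decr2 (−0.0041) and Bdh1 (−5.4e-04). Averaging WT 2 and WT 3, or counting agreeing arrays once, turned Crat (−0.0039) and Crot (−0.0082). With arrays left out in turn the ranges that crossed 0 were −0.036 to 5.8e-04 for Pdk2, −0.042 to 0.059 for Cpt2, −0.022 to 0.020 for Crat, −0.025 to 0.075 for Crot, −0.049 to 0.054 for Acox3, −0.052 to 0.020 for Acadm, −0.0099 to 0.0081 for Hadh, −0.0051 to 0.072 for Hadha, −0.0032 to 0.080 for Bdh1, −0.074 to 0.013 for Acot2, −0.059 to 0.038 for Acot12 and −0.016 to 0.011 for Etfdh. Without a detection call, the dimmest member, Fgf21, cannot be told apart from background.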
